A study of Mus musculus with 3 samples.

Results

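Homeobox genes outside the Hox clusters were taken from the peak lists of a chromatin immunoprecipitation sequencing (ChIP-seq) experiment on the nucleoporin Seh1 in mouse neural stem cells. They were taken by a rule on names, chosen with earlier results of these data known. The rule took genes whose symbol begins with 1 of 18 stems followed by a digit. These were the stems of Pax6, Lhx2, Lmx1a, Nkx2-1, Six3, Dlx1, Irx3, Meis1, Pbx3, Pou3f2, Emx1, Otx2, Msx1, Gsx1, Onecut1, Cux1, Barhl1 and Zfhx3. Of the 9838 gene names in the 2 lists, 55 met this rule, and 49 of them were protein-coding. The other 6 were the antisense RNAs Emx2os, Lhx1os, Msx1os and Six3os1 and the pseudogenes Pou5f1-rs4 and Pou5f1-rs5. The label fits these names with few exceptions: Pou2af1 encodes a coactivator of POU proteins and has no homeobox, and some Pax proteins carry a paired domain with only part of a homeodomain or none.

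All 3 libraries came from primary wild-type neural stem cells, cultured from newborn cortex and kept proliferating in growth medium with EGF and bFGF. The groups were a Seh1 immunoprecipitation, a control immunoprecipitation with IgG, which has no target in chromatin, and unprecipitated input, with 1 library in each. Peaks were listed for Seh1 (16113 peaks) and IgG (5314 peaks), and the peak names in the headers pair both with the input. The deposited score was 0 for every peak, so no peak has a height or a p-value, read depth is unknown, and without replicates no test of a difference was possible. Intervals below are 95% exact binomial (Clopper-Pearson) intervals and cover counting error only. Peak lists hold no expression values, so the identity of the cells could not be checked against markers. In a bulk culture, binding in few cells and weak binding in all cells cannot be told apart.

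Homeobox genes encode transcription factors that bind DNA through a homeodomain, often at a TAAT core. In the developing brain they divide the neural tube into regions and set the identity of progenitors and neurons. Many lie in gene-poor stretches of the genome that hold long-range enhancers, far from the transcription start site (TSS). Each peak in the lists was given by the authors to the gene with the nearest TSS, at any distance.

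The Seh1 list gave 108 peaks to 48 of these 55 names, and the IgG list gave 14 peaks to 13. That was 0.67% of all Seh1 peaks (0.55 to 0.809%) and 0.263% of all IgG peaks (0.144 to 0.442%). Names found only in the Seh1 list numbered 42, those only in the IgG list 7, and 6 were in both. Of all 9838 gene names, 8548 were given a Seh1 peak and 3093 an IgG peak. An excess of names with Seh1 peaks was thus not particular to homeobox genes, and the split was not tested against all names. The RefSeq gene table held 93 protein-coding genes with these stems. Of these, 43 (46.2%, 35.8 to 56.9%) were given at least 1 Seh1 peak, against 31.9% of all protein-coding genes. For IgG the count was 12 of 93 (12.9%, 6.85 to 21.5%), close to the 11.3% of all protein-coding genes. The remaining 44 genes were given no peak in either list.

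**Figure D1:**
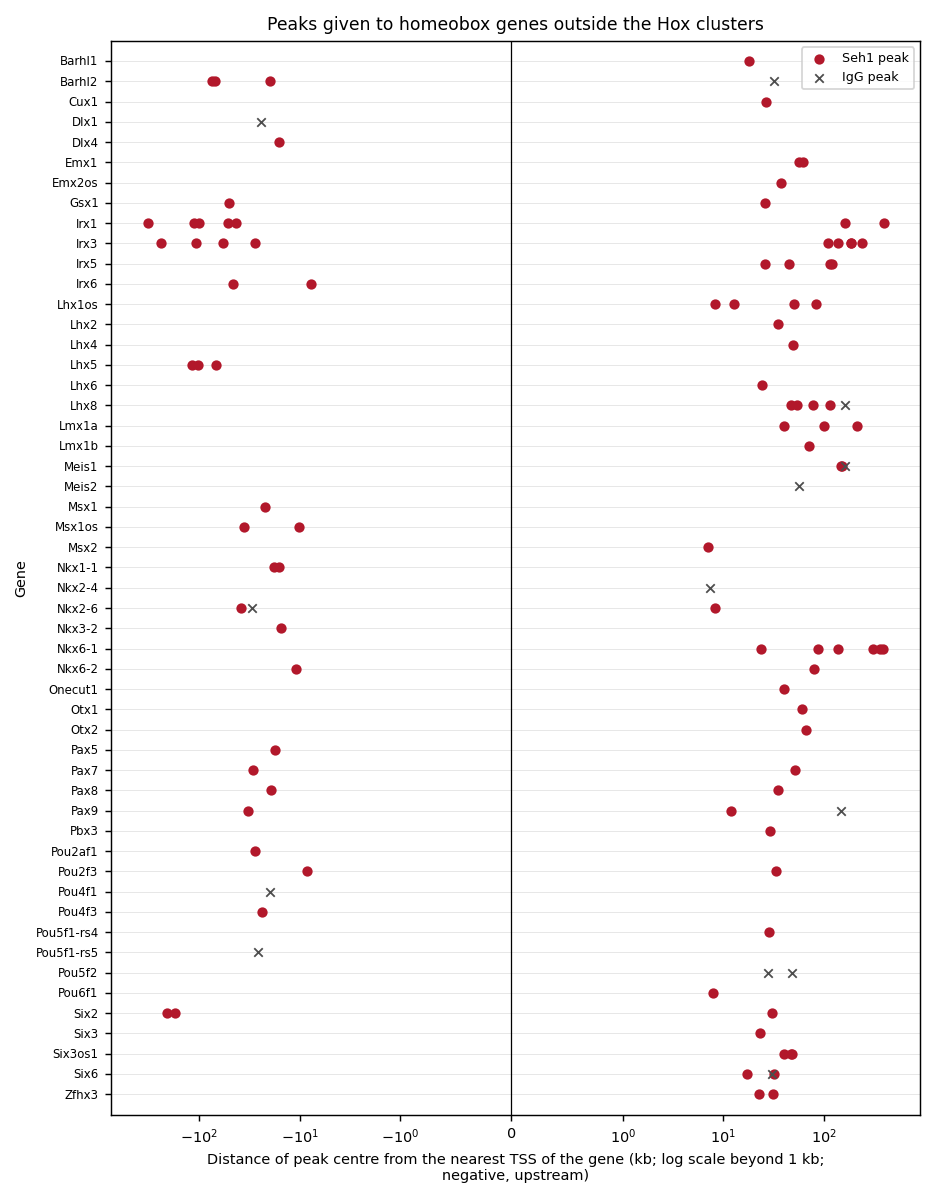
Each row is a gene reported here and each point a peak, at the signed distance of its centre from the nearest TSS of that gene (kb, log scale beyond 1 kb, upstream negative), for the Seh1 library (circles) and the IgG library (crosses). No peak of either library lies within 1 kb of a TSS, and Irx3, Irx1 and Nkx6-1 carry 9, 7 and 6 Seh1 peaks.

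The share of genes with a Seh1 peak moved with the room around the gene. The territory of a gene, which runs to the midpoint of the gap to its curated neighbour on either side, had a median of 58.2 kb for the 93 homeobox genes and 42 kb for all protein-coding genes, although the homeobox genes themselves were shorter (median 8.04 kb against 17.2 kb). Peaks were given by nearest TSS, so a gene could be given peaks from outside its territory. All protein-coding genes with a curated transcript were split into terciles of 7000 or 7001 genes. In the tercile with the largest territories, 23 of 39 homeobox genes (59%, 42.1 to 74.4%) and 55.9% of all protein-coding genes had a Seh1 peak. In the middle tercile the counts were 16 of 35 (45.7%, 28.8 to 63.4%) and 30.1%, and in the smallest tercile 4 of 19 (21.1%, 6.05 to 45.6%) and 13.2%. In each tercile the Seh1 share of all protein-coding genes lay inside the interval of the homeobox genes. The IgG counts of homeobox genes were too small, with overlapping intervals, to show whether they moved with territory. They were 5 of 39 (12.8%, 4.3 to 27.4%) in the largest tercile, against 25.6% of all protein-coding genes, and 4 of 35 (11.4%, 3.2 to 26.7%) in the middle tercile, against 7.46%. In the smallest tercile the IgG count was 3 of 19 (15.8%, 3.38 to 39.6%), against 2.24%, a share below that interval. These 3 genes were Dlx1, Nkx2-6 and Pou4f1, with 1 IgG peak each, 24.5, 30 and 19.7 kb from the TSS. Their territories were 7.33, 11.3 and 12.3 kb, so these peaks lay outside them. Counted by position, without regard to the nearest TSS, the median homeobox gene had 8 Seh1 peaks within 500 kb of its middle and the median protein-coding gene had 7. Within 100 kb the medians were 2 and 1. By nearest TSS, Irx3, Irx1 and Nkx6-1 were given 9, 7 and 6 Seh1 peaks, and their territories were 330, 761 and 251 kb. The farthest Nkx6-1 peak, 392 kb from the TSS, lay outside its territory. Within 100 kb of the middles of Irx3, Irx1 and Nkx6-1 lay 2, 2 and 3 Seh1 peaks.

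**Figure D2:**
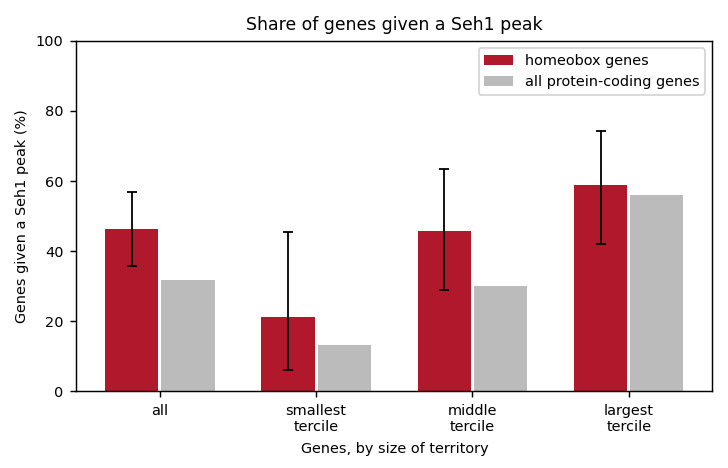
Percentage of genes given at least 1 Seh1 peak, for homeobox genes (red, with 95% exact binomial intervals) and all protein-coding genes (grey), over all genes and by tercile of territory. The homeobox genes stand at 46.2% against 31.9% over all genes, and at 59% against 55.9% among genes with the largest territories.

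No Seh1 peak given to these genes lay at their promoters, and few Seh1 peaks of the whole list lay at a promoter. None of the 108 peaks lay within 1 kb of the TSS, which allows a share of up to 2.78%. The share of all Seh1 peaks, 1.92%, is within that limit, so no difference from the whole list is shown. The nearest lay 1262 bp from its TSS. Within 10 kb were 9 of 108 peaks (8.33%, 3.88 to 15.2%), against 18.1% of all Seh1 peaks. The median distance was 47.5 kb, with a range up to 397 kb, against a median of 37.8 kb for all Seh1 peaks. Counted by gene, 7 of 93 (7.53%, 3.08 to 14.9%) had a Seh1 peak within 10 kb, close to the 9.68% of all protein-coding genes, and 1 had an IgG peak there (1.08%, against 2.36%).

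Promoter windows from RefSeq (GRCm38.p6, the assembly of mm10) were available for 69 of the 93 genes, in 86 windows of 250 bases before to 50 after a TSS. A Seh1 peak overlapped 0 of these 86 windows, which allows a share of up to 3.49%. The share for the windows of all genes, 0.6%, is within that limit. The 250 bases before the TSS are shown for Irx3 (chr8:91801655-91801904, minus strand), which had the most Seh1 peaks, and for Msx2 (chr13:53472781-53473030, minus strand) and Pou6f1 (chr15:100599985-100600234, minus strand), whose peaks were among the nearest to a TSS. Capitals mark TAATTA, a palindromic homeodomain motif that reads the same on both strands. It was found in 3 of the 86 homeobox windows (3.49%) and in 4.84% of all windows, over the 250 upstream bases.
Irx3: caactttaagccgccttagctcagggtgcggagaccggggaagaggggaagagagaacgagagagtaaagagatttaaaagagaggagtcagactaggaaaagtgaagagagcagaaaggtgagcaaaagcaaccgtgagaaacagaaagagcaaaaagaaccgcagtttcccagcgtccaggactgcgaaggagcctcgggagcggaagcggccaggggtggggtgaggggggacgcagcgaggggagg
Msx2: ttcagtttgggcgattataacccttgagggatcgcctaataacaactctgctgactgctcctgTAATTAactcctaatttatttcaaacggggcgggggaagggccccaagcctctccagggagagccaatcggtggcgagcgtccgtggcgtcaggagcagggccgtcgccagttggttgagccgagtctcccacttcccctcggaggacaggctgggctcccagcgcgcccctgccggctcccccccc
Pou6f1: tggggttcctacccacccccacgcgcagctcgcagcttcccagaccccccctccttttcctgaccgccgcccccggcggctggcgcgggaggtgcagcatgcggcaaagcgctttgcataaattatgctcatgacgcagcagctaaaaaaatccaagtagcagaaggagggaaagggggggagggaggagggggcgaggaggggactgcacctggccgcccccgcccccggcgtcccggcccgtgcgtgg
The Msx2 stretch held the motif 1 time and the other two did not hold it. Their GC content was 56% for Irx3, 61.6% for Msx2 and 68% for Pou6f1.

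The genes with a Seh1 peak within 10 kb belonged to several families. Nkx2-6, which acts in the heart and pharynx, had a peak of 579 bp at 8.24 kb downstream of a TSS, wider than 98.9% of all Seh1 peaks. Msx2, a target of BMP signalling in the skull and limb, had a peak 7.11 kb downstream of its TSS, past the end of the transcript. Pou6f1 had a 420 bp peak in exon 3 of 11, at 7.96 kb. Pou2f3, which specifies tuft cells, had a peak 8.52 kb upstream. Irx6 had a peak 7.74 kb upstream. The antisense RNA Lhx1os had a peak 8.29 kb downstream, in its own intron.

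Exons, a class kept apart from UTRs, held 7 of the 108 Seh1 peaks (6.48%, 2.65 to 12.9%), close to the 5.37% of all Seh1 peaks, and 6 of them lay in an exon of the gene they were given to. Besides the peak in Pou6f1 these included peaks in Lmx1b (exon 3 of 8, 371 bp wide), Pax7 (exon 6 of 9, 268 bp wide) and Pax8 (exon 7 of 12, 467 bp wide). Lmx1b patterns the dorsal limb and serotonergic neurons, Pax7 marks muscle stem cells and Pax8 directs thyroid development. The exon peak given to Lhx6, a factor of cortical interneurons, lay in exon 5 of 5 of the neighbouring Morn5, 24.5 kb from the TSS of Lhx6. Of the 14 IgG peaks given to these genes, 0 lay in an exon, against 1.09% of all IgG peaks. With so few peaks this allows a share of up to 21.4%, so no contrast with Seh1 can be drawn.

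The rest lay in introns or between genes. Intergenic sequence held 76 Seh1 peaks (70.4%, 60.8 to 78.8%), against 54.3% of all Seh1 peaks, and introns held 25 (23.1%, 15.6 to 32.2%), against 36.8%. Of the 25 intron peaks, 10 lay in an intron of another gene. Relative to the gene they were given to, 21 peaks lay inside it, 38 upstream and 49 downstream of it. Widths were close to those of the whole list, with a median of 264 bp (266 bp for all Seh1 peaks), a range from 243 to 681 bp and 26.9% at the minimum width (27.2% for all). None of the 108 overlapped an IgG peak, as was the case for all but 60 of the 16113 Seh1 peaks.

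Fewer of these peaks than of the whole list were annotated as repeats, a difference that was not tested against chance. The centre of 17 Seh1 peaks (15.7%, 9.45 to 24%) lay in an annotated repeat, against 39.8% of all Seh1 peaks (39 to 40.6%). The annotation labels repeats almost only at intron and intergenic peaks, and among those the shares were 16.8% (10.1 to 25.6%) and 43.7%. Long terminal repeats were at 6 of the 108 peaks (5.56%, against 17%) and LINE elements at 3 (2.78%, against 10.6%). SINE elements were at 5 (4.63%, against 6.9%). Counted by position, peaks within 100 kb of the middle of a homeobox gene lay in repeats in 31 of 153 cases (20.3%, 14.2 to 27.5%), and those within 100 kb of any protein-coding gene in 34.9%. The IgG peaks given to the homeobox genes lay in repeats in 8 of 14 cases (57.1%, 28.9 to 82.3%), near the 52% of all IgG peaks, and 5 of the 8 were LINE elements. For homeobox genes outside the 18 stems, 36 of 102 Seh1 peaks (35.3%, 26.1 to 45.4%) lay in repeats.

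**Figure D3:**
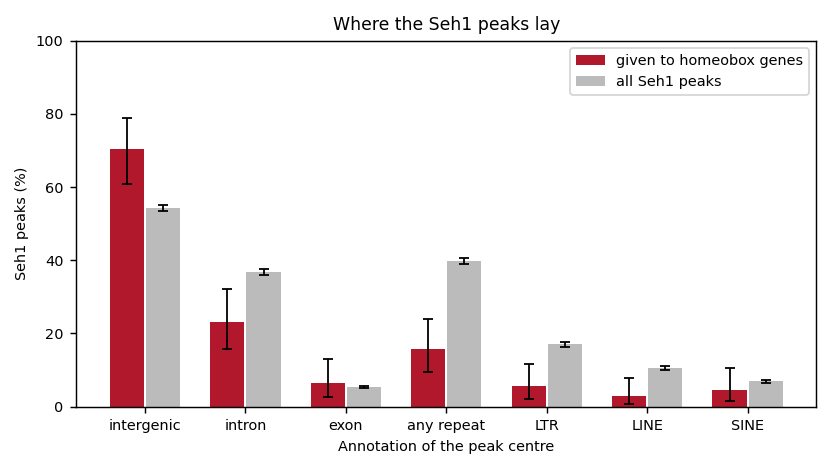
Percentage of Seh1 peaks by annotation of the peak centre, for the 108 peaks given to homeobox genes (red) and all 16113 Seh1 peaks (grey), with 95% exact binomial intervals. Repeats hold 15.7% of the homeobox gene peaks and 39.8% of all peaks, and intergenic sequence holds 70.4% and 54.3%.

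Among the TALE homeobox genes (Irx, Meis and Pbx), which encode an atypical homeodomain with an extra loop, the Iroquois genes held the most peaks. Of 6 Irx genes, 4 (66.7%, 22.3 to 95.7%) were given 22 Seh1 peaks in all, beside 31.9% of all protein-coding genes given any, and none was given an IgG peak. Irx3 had 9, between 28.2 kb and 242 kb from its TSS. Of these, 4 lay in intron 8 of 8 of the neighbouring Fto, whose introns are known to hold long-range regulatory elements of Irx3. Whether these peaks lie at such elements was not tested. Irx5 had 4, from 26.1 to 122 kb downstream, and Irx6 had 2, at 7.74 and 46.6 kb upstream. Between them lay further peaks that were given to Crnde, an RNA gene beside Irx5. Over the 882 kb from Irx3 to Irx6 lay 14 Seh1 peaks and 0 IgG peaks. With 500 kb added on either side the density was 12.2 Seh1 peaks per Mb, averaged over 1.88 Mb. In 1 Mb bins of the genome the median was 5, with 15 at the 95th percentile. Windows of 500 kb on either side of the middle of a protein-coding gene had a median of 7 and an upper quartile of 11. For the homeobox genes these were 8 and 12, so the region was near their upper quartile. It was singled out for its number of peaks. IgG bins had a median of 1, and this region had 0 IgG peaks.

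**Figure D4:**
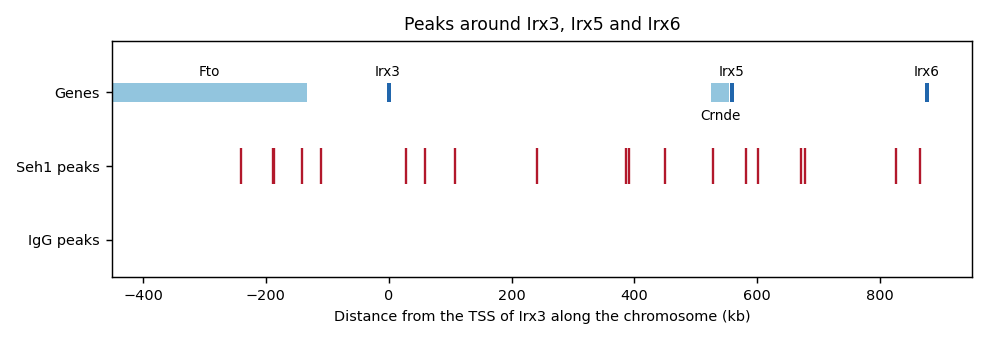
Seh1 peaks (red lines) and IgG peaks (grey lines) around Irx3, Irx5 and Irx6, by distance along the chromosome from the TSS of Irx3 (kb), with Fto and Crnde in light blue. Seh1 peaks are spread from 240 kb before to 865 kb after this TSS, and no IgG peak lies in the interval.

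The second Iroquois cluster had peaks at Irx1 alone. Its 7 Seh1 peaks lay from 324 kb upstream to 397 kb downstream, and the farthest was 525 bp wide. Irx2 and Irx4 were given none, although 11 Seh1 peaks lay in the 1310 kb from Irx1 to Irx4, those not given to Irx1 going to Gm20554, D730050B12Rik and 4930555K05Rik in between. Pbx3, whose family encodes cofactors of Hox proteins, had 1 peak, in an intron and in an RMER1A repeat, and Pbx2 and Pbx4 had none. Meis1, a partner of Pbx proteins, had 2 Seh1 peaks 149 and 154 kb downstream of its TSS, past the gene, and an IgG peak at 165 kb. Meis2 had only an IgG peak, in its own intron, and Meis3 had none.

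LIM homeobox genes were given Seh1 peaks in 5 of 8 Lhx genes (62.5%, 24.5 to 91.5%) and 2 of 2 Lmx genes (interval from 15.8%). Both intervals include the 31.9% of all protein-coding genes. Lhx8, needed for cholinergic neurons of the basal forebrain, had 4, from 47.1 to 116 kb downstream, with 2 of them in introns of Slc44a5. Its IgG peak lay in another intron of the same neighbour, in an L1Md_F2 element. Lhx5 had 3 peaks, all between 68.3 and 118 kb upstream. Lmx1a, required for midbrain dopamine neurons, had 2 peaks in its intron 2 and 1 peak 215 kb from the TSS. Lhx2, which maintains cortical progenitors, had 1 peak 35.3 kb downstream in a B4 element, and Lhx4, a pituitary factor, had a 476 bp peak 49.3 kb downstream. Lhx1 itself had no peak, but its antisense neighbour Lhx1os had 4, of which the nearest lay 8.42 kb from Lhx1.

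NK genes were given Seh1 peaks in 6 of 14 cases (42.9%, 17.7 to 71.1%), beside 31.9% of all protein-coding genes. Nkx6-1, which patterns the ventral neural tube and the pancreas, had 6, all downstream from 23.6 to 392 kb, and the peak at 141 kb was 577 bp wide. Nkx6-2, a gene of the oligodendrocyte lineage, had a 435 bp peak 10.8 kb upstream and another in an intron of Inpp5a. Nkx1-1 had a pair of peaks 16.1 and 18.1 kb upstream, and Nkx3-2, which acts in the skeleton, had 1 peak 15.5 kb upstream in an L1 element. Nkx2-6 had a Seh1 peak of 445 bp 38.4 kb upstream, and an IgG peak lay 7.96 kb from it. Nkx2-4 had only an IgG peak, 7.42 kb from its TSS at the end of Xrn2, and Nkx2-1, Nkx2-2, Nkx2-3, Nkx2-5 and Nkx2-9 had none.

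Of 9 Pax genes, 4 (44.4%, 13.7 to 78.8%) were given 7 Seh1 peaks, beside 31.9% of all protein-coding genes given any. For Pax5, a master regulator of B cells, the nearest TSS assigned most of the peaks to other genes. The gene was given 1 peak, 17.5 kb upstream, but 7 Seh1 peaks lay inside it, all in introns. The rule gave 6 of these to Mir5120 and 1 to 5730488B01Rik, because their start sites lie closer. The widest of the 7 spanned 557 bp (chr4:44653034-44653590). No IgG peak lay inside Pax5. Pax9, which acts in tooth and thymus, had a Seh1 peak in its intron 3 and another 32.4 kb upstream. Its IgG peak was 136 kb away from the nearer of them, the intron peak.

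The same was seen in some other long genes, but in Lmx1a and Pbx3 all Seh1 peaks inside (2 and 1) were given to the gene itself. Zfhx3, a zinc-finger homeobox gene, contained 6 Seh1 peaks, of which 2 were given to it, and 1 IgG peak. Cux1, a gene of upper-layer cortical neurons, contained 5, of which 1 was given to it and the others to Sh2b2 and Mir721. Pou2f3 contained 4, of which 3 were given to Tmem136. Pou2f2 contained 1, which was given to another gene. The authors' annotation classed this peak and some of those inside Zfhx3 as intergenic. In all, 41 Seh1 peaks lay inside 15 of the 93 genes (16.1%, 9.32 to 25.2%), a share below the 19.5% of all protein-coding genes but with an interval that includes it. The authors' annotation gave 20 of the 41 to the gene they lay in. For IgG, 2 of 93 genes contained a peak (2.15%, 0.262 to 7.55%), against 6.26%.

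**Figure D5:**
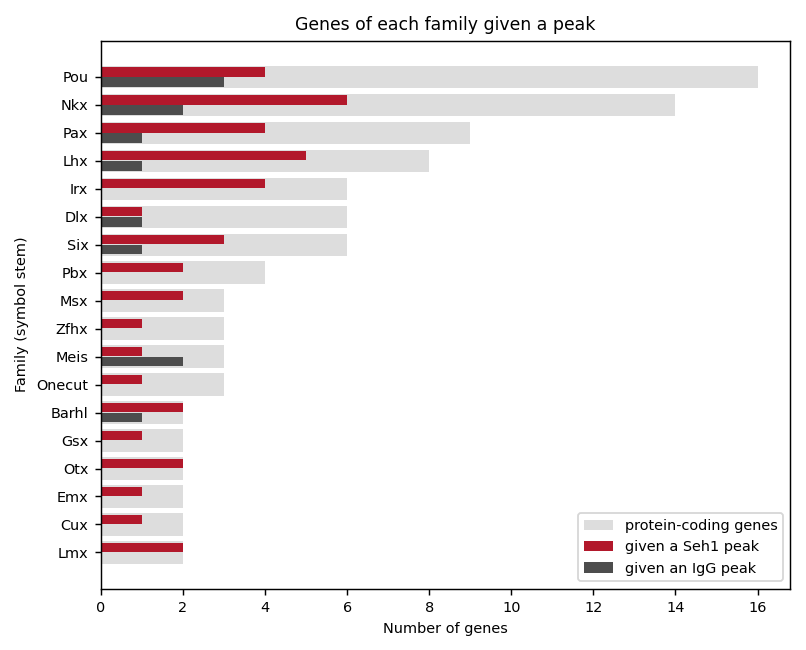
Number of protein-coding genes in each family (grey bars) and of those given at least 1 Seh1 peak (red) or IgG peak (dark grey) by the nearest TSS. Seh1 peaks reach 6 of 14 Nkx, 5 of 8 Lhx, 4 of 6 Irx, 4 of 16 Pou and 1 of 6 Dlx genes, beside 31.9% of all protein-coding genes.

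Among the homologues of fly sine oculis, 3 of 6 (50%, 11.8 to 88.2%) had Seh1 peaks, beside 31.9% of all protein-coding genes. Six3, a gene of the anterior forebrain, had 1 peak 23.2 kb downstream, and its antisense neighbour Six3os1 had 3 more, one of them 484 bp wide. Six2, which maintains kidney progenitors, had 3, at 30.7 kb downstream and at 176 and 212 kb upstream. Six6, an eye gene, had 2, at 17.2 and 32.2 kb, and an IgG peak of 485 bp in an L1M2 element lay 1525 bp from the second (chr12:72971985-72972227). Among the 6 names given peaks in both lists, this was the closest approach of the 2 libraries. Barhl1 and Barhl2, factors of neuronal migration and survival, had 1 and 3 Seh1 peaks, Msx1 and Msx2 had 1 each, and Onecut1, a liver factor, had 1. The widest peak of all 108 spanned 681 bp and was given to Msx1os, 35.6 kb upstream of its TSS, and 99.6% of the whole list was narrower.

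Seh1 peaks were given to 4 of 16 Pou genes (25%, 7.27 to 52.4%) and to 1 of 6 Dlx genes (16.7%, 0.421 to 64.1%), and both intervals include the 31.9% of all protein-coding genes. The Pou genes were Pou2f3 with 2, and Pou2af1, Pou4f3, a hair cell factor, and Pou6f1 with 1 each. The genes given IgG peaks included Pou5f2 (2 peaks, both in L1Md elements in an intron of Fam172a) and Pou4f1. Among the Dlx genes, Dlx4 alone had a Seh1 peak, 16 kb upstream in a MIRc element, and Dlx1 alone had an IgG peak, 386 bp wide in an intron of Metap1d.

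A list of 28 genes known for roles in the forebrain was also described. Of these, 13 (46.4%, 27.5 to 66.1%) were given a Seh1 peak and 4 (14.3%, 4.03 to 32.7%) an IgG peak, and 30 of the 65 other homeobox genes (46.2%, 33.7 to 59%) were given a Seh1 peak, all read against the 31.9% and 11.3% of all protein-coding genes. Emx1, a marker of the cortical lineage, had 2, both in an intron of Sfxn5, 56.9 and 63.1 kb downstream. Otx1 and Otx2, which pattern forebrain and midbrain, had 1 peak each, 60.5 and 66.6 kb downstream. Gsx1, a gene of the ventral telencephalon, had 2, at 26.1 kb downstream and 50.5 kb upstream. No Seh1 peak was given to Pax6, Emx2, Dlx1, Dlx2, Dlx5, Dlx6, Gsx2, Nkx2-1, Meis2, Cux2, Zfhx4, Pou3f1, Pou3f2, Pou3f3 or Pou3f4. Counted by position, some of them had Seh1 peaks within 100 kb of their middle. There were 2 each for Dlx1, Dlx2, Dlx5, Dlx6, Nkx2-1 and Pou3f3, and 1 each for Emx2, Gsx2 and Pou3f1. Pax6, Meis2, Cux2, Zfhx4, Pou3f2 and Pou3f4 had 0. Pax6 and Emx2 set the areas of the cortex, the Pou3f genes act in cortical neurons and progenitors, and Nkx2-1 defines the medial ganglionic eminence. Emx2os, the antisense neighbour of Emx2, had 1 Seh1 peak, 38 kb from its TSS. A Seh1 peak lay within 10 kb of a TSS in 1 of the 28 (3.57%, 0.0904 to 18.3%), beside the 9.68% of all protein-coding genes.

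Of 68 homeobox genes outside the 18 stems, 40 (58.8%, 46.2 to 70.6%) were given a Seh1 peak and 8 (11.8%, 5.22 to 21.9%) an IgG peak, again beside 31.9% and 11.3%. Within 10 kb of a TSS the Seh1 count was 8 of 68 (11.8%, 5.22 to 21.9%), beside 9.68% of all protein-coding genes. These were Prrx2 (1.42 kb), Hesx1 (3.1 kb), Hopx (4.98 kb), Alx4 (5.88 kb), Cdx2 (5.91 kb), Evx1 (8.58 kb), Gbx1 (9.03 kb) and Tlx3 (9.73 kb).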

How the data were processed

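Per the file headers, the authors annotated each peak list with HOMER annotatePeaks.pl against mm10 (GRCm38), which gave each peak a class, the nearest RefSeq TSS with its distance in bp, and a repeat name. Bowtie2 and HOMER appear in the submitters' processing notes with no version; these notes also list the human builds hg18 and hg38, and coordinates follow the file headers. The sources used here do not give the peak caller or its threshold. The score column deposited by the authors is 0 throughout and was not used.

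Members were found by the stem rule. Genes came from the RefSeq table of GRCm38.p6. Those with a start under 3 Mb (patches) were dropped except on Y, leaving 21779 protein-coding genes, matched by gene identifier. Shares were computed in Python 3.11.15 with SciPy 1.17.1 (exact binomial intervals); a share of 0 was limited by 3 counts. Overlap meant at least 1 bp. The measures were checked on simulated peaks. The named genes were those with a Seh1 peak within 10 kb or in an own exon, those with the most or the widest peaks, those with peaks of both libraries within 10 kb of each other, and a list of 28 forebrain genes; others are named to complete a family and were chosen after their values were seen. The comparison list held 69 homeobox genes, of which 68 matched. Some genes counted in the totals are not reported here. Members and lists were chosen with earlier results of these data known.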

Additional observations from a re-analysis of the deposited data

How the results depend on the processing

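The number of homeobox genes given a Seh1 peak was 43 of 93 (46.2%, against 31.9% of all protein-coding genes). It was 42 with peaks within 100 kb of the TSS (45.2%, against 29.1%) and 38 among peaks wider than the minimum (40.9%, against 26.2%). Without peaks in repeats it was 38 (40.9%, against 22%), and without peaks that overlap an IgG peak 43 (46.2%, against 31.8%). Without Pou2af1 it was 42 (45.7%, against 31.9%), and with the peaks of antisense RNAs counted for the partner gene 45. The number fell to 7 with peaks within 10 kb (7.53%, against 9.68%) and to 15 with peaks inside the gene (16.1%, against 19.5%). Under both of these rules the share of homeobox genes was below that of all protein-coding genes, with an interval that includes it. The IgG count was 12 (12.9%, against 11.3%). It was 8 within 100 kb (8.6%, against 8.9%) and 1 within 10 kb (1.08%, against 2.36%). Inside the gene it was 2 (2.15%, against 6.26%), and without peaks in repeats 6 (6.45%, against 6.46%). The share of Seh1 peaks in repeats, 15.7%, was 17.7% among wider peaks and 20.3% for peaks within 100 kb of the middle of a gene. The shares of exon, intron and intergenic peaks stayed within their intervals among wider peaks and outside repeats, and 0 peaks overlapped IgG by either other measure. Counting by partner gene and by the middle of the gene were chosen after seeing the data. No paired analysis was possible because each group has 1 library. Unknown depth limits all counts.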

Other observations

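Some Seh1 peaks lay in close pairs. Of the 108 peaks given to homeobox genes, 12 (11.1%, 5.87 to 18.6%) had another Seh1 peak within 5 kb, centre to centre, which is near the 12.2% of all Seh1 peaks. The pairs included peaks 0.688 kb apart at Six3os1, 1.7 kb at Irx3 (in Fto), 1.96 kb at Nkx1-1, 4.54 kb at Barhl2 and 4.64 kb at Lhx1os.

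The other paralogue clusters varied in local density. With 500 kb on either side, there were 12.1 Seh1 peaks per Mb around Six2 and Six3, 11.8 around Dlx1 and Dlx2, and 11.7 around Irx1, Irx2 and Irx4, but 2.94 around Dlx5 and Dlx6 and 3.87 around Nkx2-2, Nkx2-4 and Pax1. The region around Dlx1 and Dlx2 thus held 12 Seh1 peaks of which none was given to either gene.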
